A study of Mus musculus with 6 samples.

Results

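Among the transcripts counted in this study, 9 that encode amino acid transporters of the plasma membrane were followed, and their levels with and without a block of pyrimidine synthesis are described here. The members were chosen by gene name, with earlier results of these data known: the large neutral amino acid transporter Slc7a5 and its heavy chain Slc3a2, the cationic amino acid transporter Slc7a1, the y+L light chain Slc7a6, the glutamine transporters Slc38a1 and Slc38a2, the neutral amino acid exchangers Slc1a5 and Slc1a4, and the neutral amino acid carrier Slc43a1. They are 9 of 54838 genes in the count table, which lists 379 genes whose symbol starts with Slc and a digit.

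The RNA came from I1DN leukemia, a murine acute myeloid leukemia (AML) that the authors made by transducing fetal liver stem and progenitor cells with constructs carrying IDH1R132H, DNMT3AR882H and NrasG12D. The labels give the background as C57BL/6, and the leukemia was grown in Ptprca congenic recipients after sub-lethal irradiation. Of these mice, 3 received vehicle and 3 received AG636, an inhibitor of DHODH in the de novo pyrimidine pathway, at 100 mg/kg b.i.d. by mouth. All 6 samples therefore carry the same 3 alleles and differ by treatment. Immature cells with cKit and little or no CD11b were sorted from bone marrow and spleen. Which organ each sample came from is not given in the sources used here, and the sources differ on whether treatment lasted 1 or 4 days. Everything below describes 1 leukemia model.

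Amino acids cross the plasma membrane through carriers of the solute carrier (SLC) families. Slc7a5 and Slc7a6 are light chains that reach the membrane bound to the glycoprotein Slc3a2, and Slc7a5 takes up leucine and other large neutral amino acids in exchange for intracellular ones such as glutamine, which Slc1a5, Slc38a1 and Slc38a2 bring in. Proliferating blood cells and leukemias use these carriers to feed protein synthesis and the mTORC1 pathway, and the stress factor ATF4 and the MYC proteins are known to raise transcription of several of them.

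The promoter sequences of 3 carriers are shown because they hold matches to elements that such factors bind. RefSeq (GRCm38.p6) gave promoter windows, from 250 bases before to 50 bases after the transcription start, for 6 of the 9 members, 8 windows in all. The motifs searched on both strands were CACGTG, the E-box bound by MYC and its partners, and TGATGNAA, the core of the element bound by ATF4 with C/EBP proteins. Matches are in capitals, the windows are written 5′ to 3′ on the strand of the gene, and positions are counted from the start with no position 0. The Slc43a1 window (chr2:84840073-84840372, plus strand) holds an E-box at -64 to -59. The Slc1a4 window (chr11:20332664-20332963, minus strand) holds 1 ATF4 core, on the opposite strand, at -4 to 4. The third window is that of Slc7a11 (chr3:50443564-50443863, minus strand), the cystine carrier described below beside the members, which has an ATF4 core at -66 to -59 and a second at -47 to -40.
Slc43a1: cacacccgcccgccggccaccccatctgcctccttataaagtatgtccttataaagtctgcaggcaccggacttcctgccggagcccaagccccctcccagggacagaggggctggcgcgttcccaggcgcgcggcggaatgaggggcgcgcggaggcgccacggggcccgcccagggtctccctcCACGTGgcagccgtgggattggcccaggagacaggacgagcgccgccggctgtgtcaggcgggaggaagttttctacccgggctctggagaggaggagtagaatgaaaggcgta
Slc1a4: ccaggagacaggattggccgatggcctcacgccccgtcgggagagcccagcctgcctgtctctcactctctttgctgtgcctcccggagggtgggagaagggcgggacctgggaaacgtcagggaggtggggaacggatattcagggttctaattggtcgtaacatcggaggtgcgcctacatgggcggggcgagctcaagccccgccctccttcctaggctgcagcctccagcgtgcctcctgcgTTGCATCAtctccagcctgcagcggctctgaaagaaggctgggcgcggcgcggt
Slc7a11: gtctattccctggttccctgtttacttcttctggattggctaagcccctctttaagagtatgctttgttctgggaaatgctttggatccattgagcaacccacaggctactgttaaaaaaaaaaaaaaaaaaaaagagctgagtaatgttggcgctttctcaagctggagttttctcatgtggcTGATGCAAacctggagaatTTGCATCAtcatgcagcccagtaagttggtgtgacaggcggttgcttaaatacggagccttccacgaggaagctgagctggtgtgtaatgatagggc
The windows of Slc3a2, Slc7a1, Slc7a6 and Slc38a2 held neither set of letters. Of all 32851 promoter windows of that length, 7.15% held the E-box and 3.97% the ATF4 core, and the shares were 10.3% and 2.2% in the 10749 windows of genes tested here.

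Libraries held 4634963 to 7906589 counts. Levels are given as CPM, the count of a gene scaled to a fixed total of the library size after TMM adjustment. The libraries capture the 3′ end of each transcript, so a count does not grow with transcript length, and levels of different genes were set side by side on the CPM scale only. The 9 markers of immature myeloid cells, all detected, summed to 2540, 4661 and 5075 CPM with vehicle and 5309, 2017 and 4195 CPM with AG636, and the groups overlapped. Of the 8 tested, 1 was called higher, Ptprc (0.65, edgeR adjusted p = 0.0142), and 0 lower. Ptprc encodes CD45, which leukocytes in general carry, so it does not mark immature cells alone. Kit was 38.6 ± 6.03 CPM with vehicle and 42.8 ± 4.80 CPM with AG636 (SD, n = 3 each), Mpo was lowest in AG636 replicate 2 (618 CPM, against 1252 to 2772 in the other samples), and Flt3 was at most 4.33 CPM in any sample and was not tested. T cell markers summed to at most 5.49 CPM in any sample and B cell markers to 5.53 to 19.3 CPM. Endothelial markers summed to 111 to 252 CPM, mostly from Pecam1 (103 to 245 CPM). In bulk RNA, fewer cells of a type and less RNA per cell cannot be told apart.

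All 9 members passed the filter on low counts. The quasi-likelihood test of edgeR was run over the 11092 genes that passed, and a gene was called at a Benjamini-Hochberg adjusted p under 0.05. With AG636, 5 of the 9 members were called lower (Slc7a5, Slc7a1, Slc43a1, Slc1a5 and Slc3a2) and 0 were called higher. None of the 9 was called when the summed level of neutrophil markers, which differed between the groups, was put in the model, as given with the marker values below. Of all genes tested, 21.3% were called, 11.0% lower and 10.3% higher. The median log2 fold change was -0.85 over the 9 members and 0.03 over all genes tested. In the same 5 members every AG636 sample lay below every vehicle sample, against 20.6% of all genes that lay below in this way and 20.5% that lay above. Since the members were picked with earlier results known, these shares are set beside their count as a description. Summed over the 9 members, the level was 1206, 1112 and 1148 CPM in the vehicle samples and 960.2, 875.3 and 874.2 CPM in the AG636 samples, and the groups did not overlap.

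**Figure D1:**
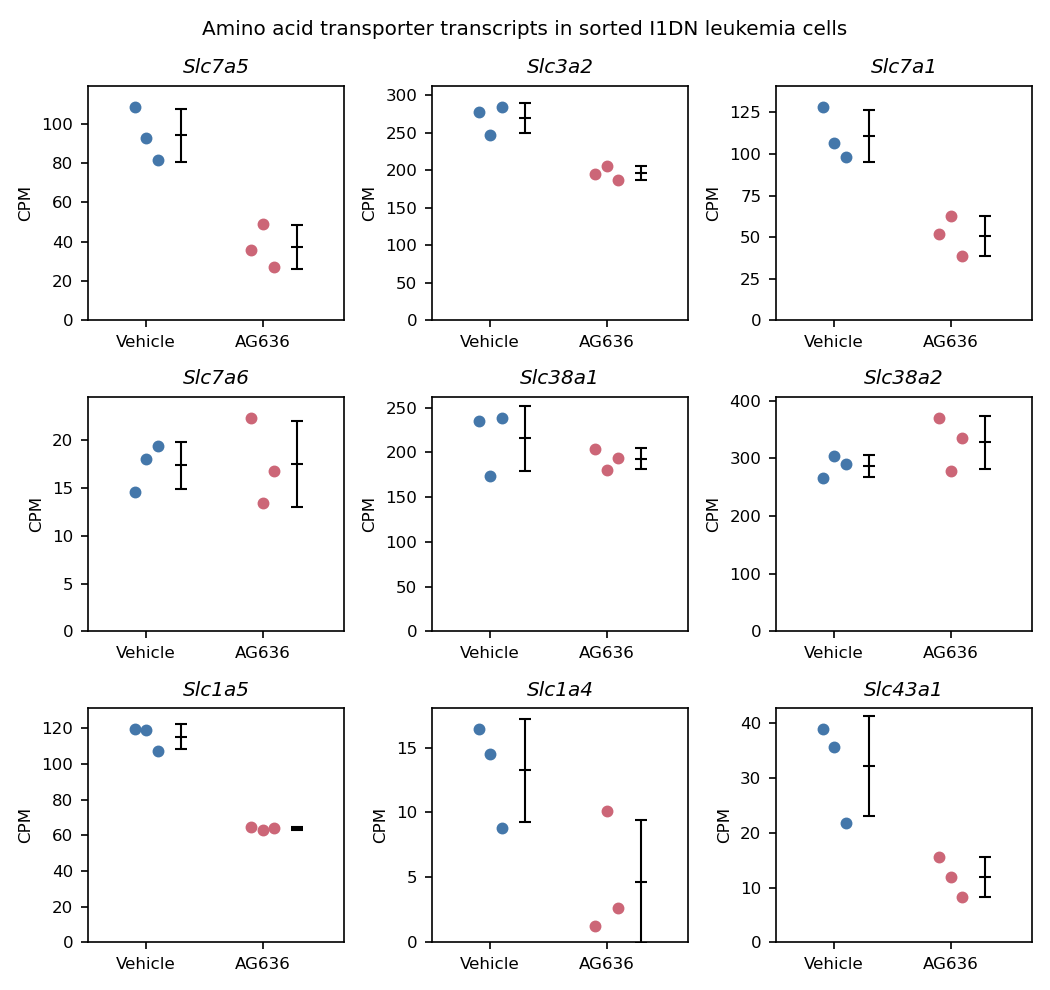
CPM of each member in the 3 vehicle and 3 AG636 samples (points), with the mean and SD of each group (bars). Slc7a5, Slc3a2, Slc7a1, Slc1a5 and Slc43a1 have every AG636 point below every vehicle point, and the points of the other members overlap.

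Slc7a5 (ENSMUSG00000040010, chromosome 8, 121881150 to 121907694, minus strand, mm10) encodes the light chain that carries leucine, and its level was 108, 92.5 and 81.5 CPM in the vehicle samples and 35.9, 49.1 and 27.0 CPM in the AG636 samples. The highest AG636 sample was well below the lowest vehicle sample. The log2 fold change was -1.34 ± 0.21 (SE), a fall of the mean from 94.1 ± 13.4 to 37.3 ± 11.1 CPM (SD, n = 3 each), with an adjusted p of 0.00453 by edgeR's quasi-likelihood test.

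Slc3a2 (ENSMUSG00000010095, chromosome 19, 8706882 to 8723369, minus strand) encodes 4F2hc, the heavy chain that Slc7a5, Slc7a6 and several other light chains share. Its level was 278, 248 and 284 CPM with vehicle and 196, 206 and 187 CPM with AG636. The groups did not overlap, and the log2 fold change was -0.46 ± 0.11 (SE; edgeR adjusted p = 0.0197). The call depended on single samples: without AG636 replicate 1 the adjusted p was 0.0637 and without AG636 replicate 3 it was 0.0756, at fold changes of -0.46 and -0.43.

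Slc7a6 (ENSMUSG00000031904, chromosome 8, 106168857 to 106198706, plus strand) encodes a light chain of Slc3a2 that exchanges cationic for neutral amino acids. It was 14.6, 18.1 and 19.4 CPM with vehicle and 22.3, 13.4 and 16.8 CPM with AG636. The highest and the lowest value were both AG636 samples. The log2 fold change was 0.01 with a 95% interval of -0.50 to 0.52 and an edgeR adjusted p of 0.978, and its sign changed under several other settings, so no direction is given.

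The ratio of a light chain to the heavy chain within each sample does not depend on the scaling of the libraries. The ratio of Slc7a5 to Slc3a2 CPM was 0.389, 0.373 and 0.287 with vehicle and 0.184, 0.238 and 0.144 with AG636. All AG636 ratios were lower, and the log2 ratio differed by -0.91 (95% interval -1.60 to -0.22, n = 3 each; exact two-sided permutation p = 0.1, or 0.25 adjusted over the 5 pairs compared). With 3 against 3 samples, 0.1 is the smallest p this test can give, so no pair could pass a threshold of 0.05. The log2 ratio of Slc7a5 to Slc7a6 also differed without overlap, by -1.36 (interval -2.64 to -0.07, exact permutation p = 0.1, adjusted 0.25), from 7.40, 5.12 and 4.19 with vehicle to 1.61, 3.66 and 1.61 with AG636 as ratios. The log2 ratio of Slc7a6 to Slc3a2 differed by 0.45, with overlapping groups and an interval of -0.32 to 1.21 (exact permutation p = 0.3, adjusted 0.375).

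**Figure D2:**
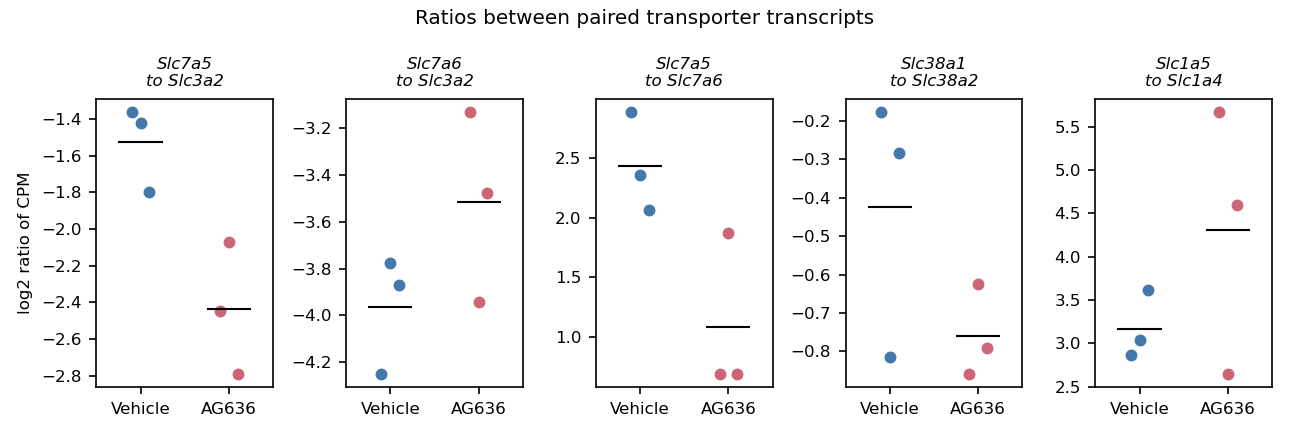
Log2 ratio of CPM between paired members in each sample (points), with group means (lines). Slc7a5 to Slc3a2 and Slc7a5 to Slc7a6 are lower in every AG636 sample than in any vehicle sample, and the other pairs overlap.

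The cationic transporter Slc7a1 (ENSMUSG00000041313, chromosome 5, 148327410 to 148399904, minus strand) takes up arginine and lysine. It was 128, 106 and 98.0 CPM with vehicle and 51.6, 62.7 and 38.7 CPM with AG636. Every AG636 sample was below every vehicle sample, and the log2 fold change was -1.12 ± 0.19 (SE; edgeR adjusted p = 0.00521). The mean was 0.46 of the vehicle mean.

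The glutamine carriers follow. Slc1a5 (ENSMUSG00000001918, chromosome 7, 16781340 to 16798274, plus strand), also called ASCT2, exchanges glutamine for other neutral amino acids. Its level was 119, 119 and 107 CPM with vehicle and 64.8, 63.1 and 64.0 CPM with AG636. The samples of each group lay close together and far from the other group, with a log2 fold change of -0.85 ± 0.12 (SE) and, among the members, the lowest adjusted p in edgeR's test, 0.00320.

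Slc38a1 and Slc38a2 are sodium-coupled carriers (SNAT1 and SNAT2) that accumulate glutamine and other small neutral amino acids, and neither was called. Slc38a1 (ENSMUSG00000023169, chromosome 15, 96571418 to 96642913, minus strand) was 236, 173 and 238 CPM with vehicle and 204, 180 and 194 CPM with AG636. The vehicle samples spanned all the AG636 samples, and the log2 fold change was -0.16 (95% interval -0.48 to 0.15, edgeR adjusted p = 0.442). Slc38a2 (ENSMUSG00000022462, chromosome 15, 96687392 to 96699730, minus strand) was 266, 305 and 290 CPM with vehicle and 370, 278 and 336 CPM with AG636. Its groups overlapped through AG636 replicate 2, and the log2 fold change was 0.19 (interval -0.10 to 0.48, edgeR adjusted p = 0.310). The log2 ratio of Slc38a1 to Slc38a2 differed by -0.33 (interval -0.91 to 0.25, exact permutation p = 0.3, adjusted 0.375, n = 3 each).

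Slc1a4 (ENSMUSG00000020142, chromosome 11, 20302180 to 20332713, minus strand), also called ASCT1, carries serine, alanine and other small neutral amino acids. This was the lowest member, at 16.4, 14.5 and 8.78 CPM with vehicle and 1.27, 10.1 and 2.64 CPM with AG636, which are 6, 49 and 14 counts in the AG636 samples. AG636 replicate 2 was inside the vehicle range while the other 2 were below it. The log2 fold change of -1.51 had a wide interval, -2.75 to -0.27, and an edgeR adjusted p of 0.0779, so it was not called. Its call turned on the method and on that sample: the adjusted p was 0.0256 in DESeq2, 0.0324 in limma-voom, and 0.00494 in edgeR without AG636 replicate 2, where the log2 fold change was -2.73, and over all alternatives it ran from 1.88e-05 with no filter to 0.676 with the neutrophil covariate. The log2 ratio of Slc1a5 to Slc1a4 differed by 1.13, with overlapping groups and an interval of -1.41 to 3.67 (exact permutation p = 0.4, adjusted 0.4, n = 3 each).

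Slc43a1 (ENSMUSG00000027075, chromosome 2, 84838850 to 84863594, plus strand), or LAT3, lets branched-chain amino acids and phenylalanine through without a heavy chain. It was 38.9, 35.7 and 21.7 CPM with vehicle and 15.5, 12.0 and 8.31 CPM with AG636. The groups did not overlap although vehicle replicate 3 was low, and the log2 fold change was -1.44 ± 0.28 (SE; edgeR adjusted p = 0.00906). Among the called members it had the largest fall. The exact permutation p was 0.1 for each of the 5 called members, the smallest that 3 against 3 allows, and 0.2 to 1 for the other 4 (two-sided).

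In order of mean level, the vehicle samples ran from Slc38a2 (287 CPM) through Slc3a2 (270.0), Slc38a1 (216), Slc1a5 (115), Slc7a1 (111), Slc7a5 (94.1), Slc43a1 (32.1) and Slc7a6 (17.4) to Slc1a4 (13.2). The ranges of the neighbours Slc38a2 and Slc3a2, Slc1a5 and Slc7a1, Slc7a1 and Slc7a5, and Slc7a6 and Slc1a4 overlapped. With AG636 the order was the same except that Slc7a6 (17.5 CPM) came above Slc43a1 (11.9 CPM), whose ranges overlapped there. With AG636 the range of Slc38a2 no longer met that of Slc3a2, at 328 against 196 CPM on average, while Slc3a2 met Slc38a1, Slc7a1 met Slc7a5 and Slc43a1 met Slc1a4.

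**Figure D3:**
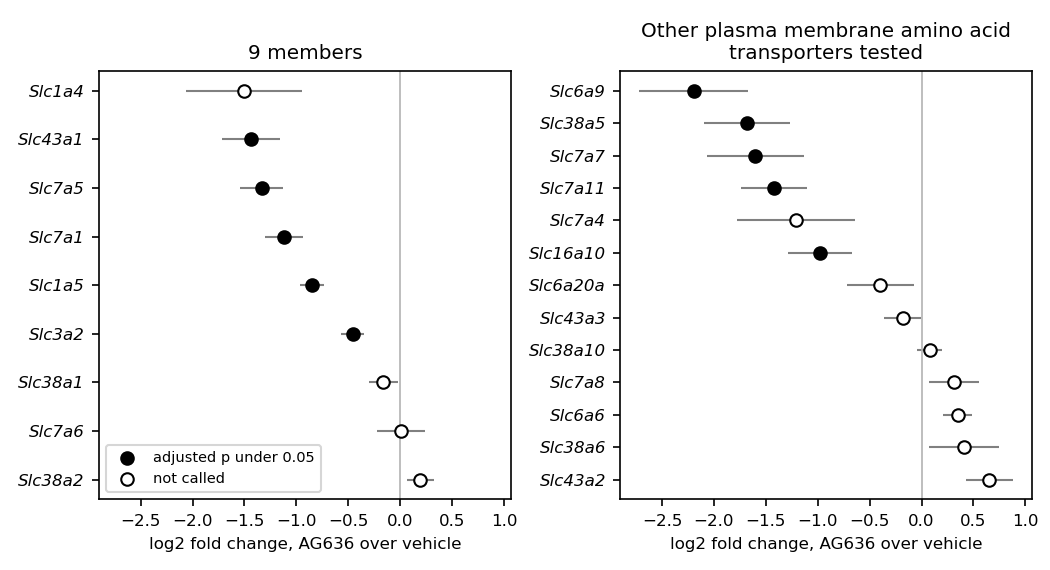
Log2 fold change of AG636 over vehicle for the 9 members (left) and for the 13 other plasma membrane amino acid transporters tested (right), with bars of 1 SE. Filled points have an adjusted p under 0.05 and all of them lie below 0.

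Other carriers of the plasma membrane were taken from a fixed list of 40 genes, of which 13 were expressed enough to be tested. Of these, 5 were called lower (38.5%, against 11.0% of all genes tested) and 0 higher, and the median log2 fold change was -0.40. Slc7a11, the light chain of the cystine-glutamate exchanger that also pairs with Slc3a2, was 6.95, 6.41 and 6.27 CPM with vehicle and 3.19, 2.06 and 2.08 CPM with AG636 (log2 fold change -1.42 ± 0.32 SE, edgeR adjusted p = 0.0142). Slc38a5, a glutamine and glycine carrier of the family of Slc38a1, was 48.7, 33.5 and 23.8 CPM with vehicle and 15.3, 14.0 and 3.96 CPM with AG636 (-1.68, edgeR adjusted p = 0.0205). The glycine carrier Slc6a9 fell by 2.20 on the log2 scale (edgeR adjusted p = 0.0182) and Slc7a7, another y+L light chain of Slc3a2, by 1.60 (0.0365). Over single samples left out, the log2 fold change of Slc6a9 ran from -1.77 to -2.90, and it was called only without vehicle replicate 3 (-2.52) or AG636 replicate 2 (-2.90). Slc7a11 was not called without AG636 replicate 3, Slc38a5 without vehicle replicate 2, and Slc7a7 without AG636 replicate 1 or 3. Slc7a7 was also not among the genes called without vehicle replicate 1 or 2. The fifth gene called, Slc16a10, which carries aromatic amino acids, was named after its values were seen (-0.98, edgeR adjusted p = 0.0474). The count called lower depended on single samples: it was 2 without vehicle replicate 1, 1 without vehicle replicate 2, 2 without AG636 replicate 1 and 1 without AG636 replicate 3.

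Carriers of internal membranes were counted in the same way. Of 10 lysosomal amino acid and peptide transporters tested, 0 were called lower and 2 were called higher. The share called higher was 20%, against 10.3% of all genes tested, and the median log2 fold change was 0.21. Slc36a4 rose by 1.04 ± 0.25 (SE; edgeR adjusted p = 0.0177) and Slc36a1, a proton-coupled amino acid transporter of the lysosome, by 0.78 ± 0.20 (0.0228). Neither was called when vehicle replicate 2 or AG636 replicate 3 was left out, and 1 of them was called without vehicle replicate 1 or without AG636 replicate 1. Of 13 mitochondrial carriers tested, 2 were called lower (15.4%, against 11.0% of all genes tested) and 0 higher, at a median of -0.18. These were Sfxn1, the mitochondrial serine carrier, at -0.66 ± 0.11 (SE; edgeR adjusted p = 0.00501), and the ornithine carrier Slc25a15 at -0.76 ± 0.19 (0.0222). Slc25a15 was not called without vehicle replicate 1, vehicle replicate 2 or AG636 replicate 3, which left 1 of the 2.

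The enzymes that make the same amino acids inside the cell moved mostly down. Of 19 synthesis and glutamine enzymes tested, 10 were called lower (52.6%) and 2 higher (10.5%), with a median of -0.62. The shares over all genes tested were 11.0% and 10.3%. In the serine pathway Psat1 fell by 0.80 (edgeR adjusted p = 0.00298), Phgdh, which starts that pathway, by 0.80 (0.00592) and Shmt2, which converts serine to glycine in mitochondria, by 0.99 (0.00411). Pycrl, of proline synthesis, fell from 48.3 to 24.05 CPM on average (edgeR adjusted p = 0.00555). The 2 enzymes called higher handle glutamate: Glul, glutamine synthetase, at 1.49 (edgeR adjusted p = 0.0182) and Glud1, glutamate dehydrogenase, at 0.52 (0.0314). Glul was 78.3, 62.9 and 70.6 CPM with vehicle and 117, 346 and 131 CPM with AG636, with AG636 replicate 2 far above the rest. Without that sample its log2 fold change was 0.81 (edgeR adjusted p = 0.00781), and without vehicle replicate 2 it was not called (0.0747). Glud1 was not called without vehicle replicate 1 or 2 or AG636 replicate 1 or 3. Without AG636 replicate 3 the count called lower was 5 of 19 and without vehicle replicate 1 it was 6. The count called higher was 1 without vehicle replicate 1, AG636 replicate 1 or AG636 replicate 3, and 0 without vehicle replicate 2.

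Of 12 genes of the amino acid response tested, 5 were called lower (41.7%) and 1 higher (8.33%), at a median of -0.33. Over all genes tested the shares were 11.0% and 10.3%. By sign alone, 6 of the 12 were lower and 6 higher. Atf4, the factor that turns this response on, was 387, 387 and 355 CPM with vehicle and 204, 243 and 165 CPM with AG636, and its log2 fold change was -0.88 ± 0.14 (SE; edgeR adjusted p = 0.00517). Its targets Ddit3 (-0.76), Trib3 (-1.84) and Chac1 (-2.45) were also called lower (edgeR adjusted p = 0.0125, 0.0194 and 0.0114), and Nupr1, named after its values were seen, was the fifth (-2.02, 0.0222). All of these are RNA levels, and no protein level stands beside them. In cultured cells of another murine AML model, MN, the authors report more ATF4 protein with AG636. Ddit4, a gene of the same list and an inhibitor of mTORC1, was higher at 1.75 (edgeR adjusted p = 0.00521). The other genes of the list above 0, none of them called, were Ppp1r15a (0.52), Sesn2 (0.29), Cebpb (0.15), Eif2ak4 (0.09) and Cebpg (0.05). Chac1 was between 0.425 and 1.03 CPM in the AG636 samples, close to the 0.392 to 0.637 CPM that 3 counts stand for. Trib3 was -2.71 without AG636 replicate 2 and was not called without AG636 replicate 1 (-1.61) or AG636 replicate 3 (-1.47), and Chac1 was not called without AG636 replicate 3. Without AG636 replicate 3 the count called lower was 2 and without AG636 replicate 1 it was 3. Asns, the asparagine synthetase that the same response controls, was too low to be tested.

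Of 26 genes of lysosomal amino acid sensing tested, 1 was called lower and 3 higher, at a median of 0.04. These are shares of 3.85% lower and 11.5% higher, against 11.0% and 10.3% of all genes tested. The 3 called higher were Sesn1 (0.71), Sesn3 (1.33) and Bmt2 (0.86), which encode proteins that can restrain mTORC1 (edgeR adjusted p = 0.0120, 0.00899 and 0.0119). Castor2 (0.78), Depdc5 (0.63), Nprl2 (-0.03) and Nprl3 (-0.12), of the same list, were not called. The gene called lower was Fnip2, a partner of folliculin (-0.90, edgeR adjusted p = 0.0250), and it was not called without vehicle replicate 1 or 2 or AG636 replicate 1 or 3. Without AG636 replicate 2, 2 genes of the list were called lower. The 3 genes called higher were also called with each sample left out, 1 of the list was called higher at an adjusted p under 0.01, and 0 with the neutrophil covariate.

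Most of the 141 other genes tested whose symbol starts with Slc and a digit encode carriers of other solutes. Of the 141, 19 were called lower (13.5%) and 10 higher (7.09%), against 11.0% and 10.3% of all genes tested. Their median was -0.04. The lowest adjusted p among those called lower belonged to Slc12a4, a potassium-chloride cotransporter (-1.83), the folate carrier Slc19a1 (-1.36) and the iron carrier Slc11a2 (-1.19), at 0.00439, 0.00723 and 0.0115 by edgeR. Those called higher included the urate carrier Slc2a9 (1.79) and Slc35d2 (1.21), at 0.00303 and 0.0139 by edgeR. The calls of this list fell to 3 to 10 lower and 3 to 4 higher when vehicle replicate 1 or 2 or AG636 replicate 1 or 3 was left out.

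**Figure D4:**
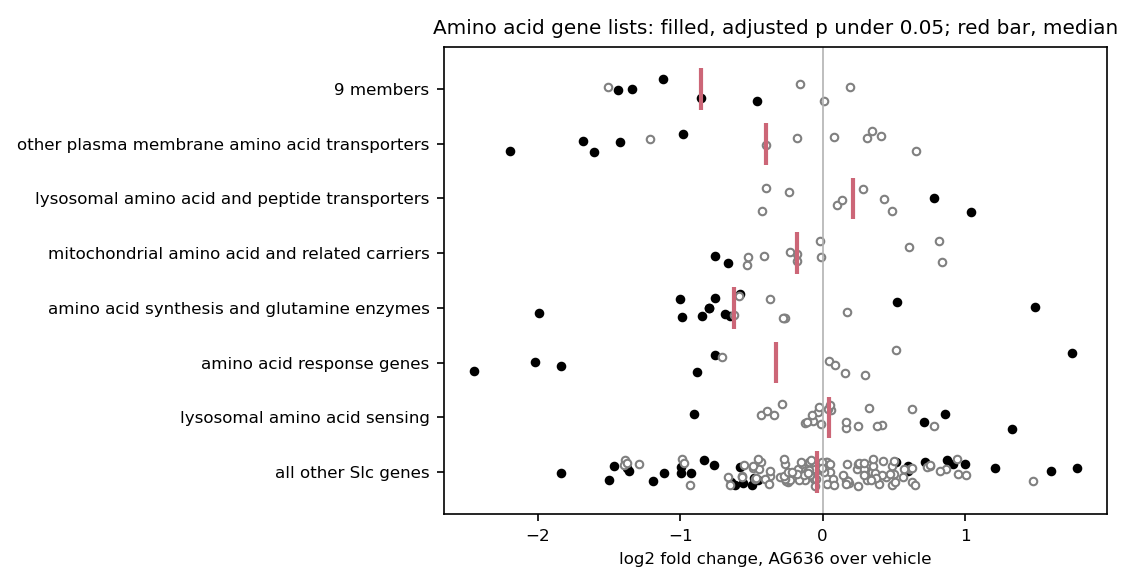
Log2 fold change of AG636 over vehicle for every tested gene (points) of the members and of 7 other lists, with the median of each list as a red bar. The medians run from -0.85 for the members to 0.21 for the lysosomal transporters.

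The levels of Slc3a2, the subunit shared by several carriers, were followed most closely over the 6 samples by Mrps10 (Pearson r of log2 CPM 0.996), Amd1 (0.995) and Iars (0.995), which encode a mitochondrial ribosomal protein, an enzyme of polyamine synthesis and the isoleucyl-tRNA synthetase. Among the members r was 0.940 for Slc7a1, 0.937 for Slc7a5 and 0.924 for Slc1a5, and -0.69 for Slc38a2. These are descriptions over 6 samples that include the difference between the groups.

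Markers of erythroid cells, mature neutrophils and monocytes are given beside these results. Whether their transcripts came from other cells or from the sorted leukemia cells themselves was not tested. The 8 erythroid markers, all of them detected, summed to 4707, 3034 and 1649 CPM with vehicle and 2433, 3236 and 1946 CPM with AG636, and 2 of the 8 were called lower. Within each group, Slc7a5 and Slc7a1 ranked in the order of this sum. Other genes named above did so too, among them the carriers Slc6a9, Slc7a7, Slc16a10 and Slc19a1. AG636 replicate 2 had more erythroid marker RNA than vehicle replicates 2 and 3, and its Slc7a5 (49.1 CPM) and Slc7a1 (62.7 CPM) were below those of every vehicle sample. With the log2 erythroid sum as a covariate in edgeR, chosen after seeing the data, 6 of 9 members were called lower, Slc1a4 among them (adjusted p = 0.0433).

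The 8 markers of mature neutrophils, all detected, summed to 963, 2010 and 2307 CPM with vehicle and 5610, 2798 and 2724 CPM with AG636, and 6 of the 8 were called higher. The sums did not overlap, so the covariate and the treatment moved together. The 8 monocyte and macrophage markers summed to 51.9 to 76.1 CPM with vehicle and 102 to 147 CPM with AG636, with 2 of the 7 tested called higher. With the log2 neutrophil sum as a covariate, also chosen after seeing the data, 0 of 9 members were called, the other lists above had 0 calls apart from 1 synthesis enzyme called lower, and of all genes tested 12 were called lower and 22 higher. The log2 fold changes of the 5 members called without it were then -1.12 for Slc7a5, -0.44 for Slc3a2, -0.95 for Slc7a1, -0.81 for Slc1a5 and -1.39 for Slc43a1, with edgeR adjusted p from 0.0791 to 0.2425. How much of these falls came with a change in cell composition, or with maturation of the sorted cells, was not tested.

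**Figure D5:**
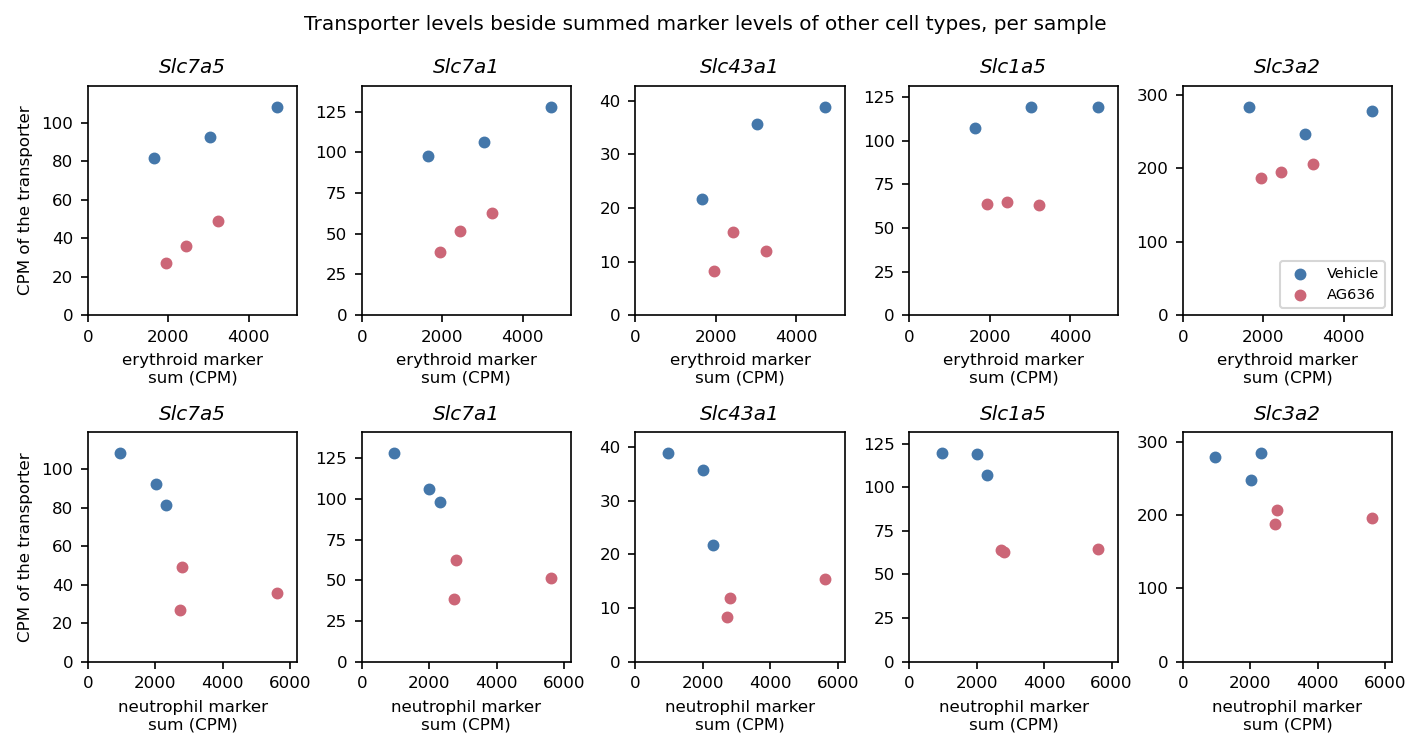
CPM of the 5 members called lower against the summed CPM of the erythroid markers (top) and of the mature neutrophil markers (bottom), 1 point per sample. The erythroid sums of the groups overlap, and the neutrophil sum of every AG636 sample is above that of every vehicle sample.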

How the data were processed

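The authors deposited 1 read count per gene and sample for 3 vehicle and 3 AG636 mice, grouped and numbered here from the submitters' labels. Per the study's methods, cells were sorted after red cell lysis and libraries were made with a 3′ mRNA kit. After quality filtering, trimming used cutadapt, alignment to mm10 used HISAT2 and counting used Subread (versions 1.9.1, 2.0.4 and 1.5.0-p3 in the submitters' processing notes). The annotation release, the use of strand and the handling of multi-mapped reads are not given in the sources used here. Exons of the members overlap those of 0 other genes. The gene length in the deposited table was not used, and no column of the table was set aside.

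GENCODE gave symbols for 54723 of the 54838 genes. Main results come from edgeR 4.0.16 in R 4.3.3, with filterByExpr at its limits of 10 counts and 15 in total, TMM scaling, the quasi-likelihood test and Benjamini-Hochberg adjustment over all 11092 genes tested. The standard error is the size of the log2 fold change divided by the square root of F. Single genes and ratios were compared by exact permutation tests. DESeq2 1.42.0, limma-voom (limma 3.58.1), other scalings and filters, a replicate block, leaving out each sample, stricter thresholds and 2 marker covariates were alternatives. Replicates differed by more than counting noise (chi-square per degree of freedom 6.67 to 15.9), and each counted as 1 sample.

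Genes were named by a rule: all members, in each other list up to 4 called genes per direction whose groups do not overlap, by adjusted p, and for other Slc genes 3 per direction. Of the genes this rule names, 1 is not reported here. The members and lists were chosen with earlier results of these data known. Totals were 4634963 to 7906589 counts. After TMM scaling 3 counts stand for 0.392 to 0.637 CPM, which covers counting error only.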

Additional observations from a re-analysis of the deposited data

How the results depend on the processing

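The members gave 4 to 6 calls lower and 0 higher under DESeq2, limma-voom, every other scaling and filter tried, the erythroid covariate, stricter thresholds and leaving out each sample. With the neutrophil marker sum as a covariate, added after seeing the data, 0 were called lower. Their median was -0.66 with at least 10 counts in every sample, where Slc1a4 dropped out, and -0.61 with the neutrophil covariate. Slc7a6 changed sign in limma-voom (-0.011), with no filter (-0.015), with the replicate block (-0.0099) and with the erythroid (-0.052) and neutrophil (-0.44) covariates, was -0.11 without vehicle replicate 1, and ranged from -0.20 to 0.17 over single samples left out. Slc38a2 was -0.0093 with the neutrophil covariate. Scaling by library size alone moved the median of all genes from 0.03 to 0.12. Same-numbered samples are different mice and did not deviate together (correlations -0.057, -0.18 and 0.22). The replicate block left 5 members called lower.

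The other lists were less stable. Leaving out each sample in turn gave 452 to 1298 of all genes called lower and 399 to 1074 higher, 3 to 19 other Slc genes lower and 3 to 10 higher, 1 to 5 other plasma membrane transporters lower, 0 to 2 lysosomal transporters higher, 1 to 3 mitochondrial carriers lower and 0 to 1 higher, 5 to 10 enzymes lower and 0 to 2 higher, 2 to 5 response genes lower and 1 to 2 higher, and 0 to 2 sensing genes lower. With the neutrophil covariate 12 of all genes were lower and 22 higher, 1 enzyme was lower, and every other list had 0 in the directions called before. At an adjusted p under 0.01 the counts were 325 and 231 for all genes, 2 and 2 for other Slc genes, 4 enzymes lower and 0 higher, 1 mitochondrial carrier and 1 response gene lower, 1 sensing gene higher and 0 lower, and 0 plasma membrane or lysosomal transporters. Testing against a fold change of 1.2 gave 616 and 588 for all genes, 6 and 4 for other Slc genes, 3 plasma membrane transporters lower, 1 lysosomal transporter higher, 1 mitochondrial carrier lower, 5 enzymes lower and 1 higher, and 0 sensing genes lower. With at least 10 counts in every sample, 3 plasma membrane transporters and 2 response genes were lower and 1 mitochondrial carrier was higher. With no filter, 31 other Slc genes were lower, and 1 plasma membrane transporter, 1 mitochondrial carrier and 2 response genes were higher. The replicate block gave 3 plasma membrane transporters lower and 1 higher. DESeq2, library size alone and the erythroid covariate each called 1 plasma membrane transporter higher, and the last called 1 mitochondrial carrier higher and library size alone 2.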
